A study of Mus musculus with 14 samples.

Results

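The intermediate filament genes followed here are Nes, Vim, Gfap, Des, Synm, Nefl, Nefm and Ina, a list of 8 symbols taken by name, with earlier results of these data known. Of these, 7 had a row among the 15119 genes of the deposited table and all 7 passed the filter on low values; Nefl had no row in the table used here and was not analysed. Dentate gyrus tissue came from adult mice (B6.Cg-Tg(Nes-EGFP)1Yamm) in which Nestin regulatory elements drive enhanced GFP. GFP-positive cells were sorted by their signal with dihydroethidium, which becomes fluorescent when oxidised by reactive oxygen species (ROS), and their RNA was sequenced. The 3 sorted classes were GFP+ROS+ (5 libraries), GFP+ROS++ (5 libraries) and GFP+ROS+++ (4 libraries). All 3 carried the same transgene, passed the same GFP gate and received no treatment, so no class was selected for lacking the Nestin programme. The labels give no exact age, sex or animal for a library, so that p-values cover the spread among these libraries alone.

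Intermediate filaments are the rope-like part of the cytoskeleton, built from proteins that pair into coiled coils and assemble without a nucleotide. Cells change their filament proteins as they change identity: neural stem cells and radial glia are known for nestin, vimentin and glial fibrillary acidic protein, neurons for the neurofilament subunits and alpha-internexin, and muscle and mural cells for desmin. Nestin does not readily form filaments alone and joins vimentin-type partners. In the adult dentate gyrus the radial glia-like stem cell is classically recognised by nestin together with glial fibrillary acidic protein, while alpha-internexin belongs to its neuronal progeny. Pericytes, the contractile cells of capillaries, can also carry nestin, vimentin and desmin.

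The filament genes fell into those that were higher in the upper ROS classes (Nes, Des, Vim, Gfap), 1 that was lower there (Ina), and 2 at a low level (Synm, Nefm). Levels are given in CPM, read counts scaled to 1 common total per library, and differences are on the log2(CPM + 1) scale, called at an adjusted p under 0.05 over all 15102 genes tested. In GFP+ROS++ against GFP+ROS+, 4 of the 7 genes were called higher and 1 lower, where 29.6% of all tested genes were called, 16.4% higher and 13.2% lower. In GFP+ROS+++ against GFP+ROS+, 4 were called higher and 2 lower, where 59.2% of all genes were called, 19.2% higher and 40.0% lower. In GFP+ROS+++ against GFP+ROS++, 2 were called higher and 1 lower, where 39.1% of all genes were called, 9.89% higher and 29.2% lower. The median difference of the 7 genes was 2.00, 2.22 and -0.26 in these comparisons, beside -0.03, -0.44 and -0.34 over all tested genes. The counts of members were the same under both other scalings of the libraries. Scaling by relative log expression made 50.6% of the called genes higher in GFP+ROS+++ against GFP+ROS+, beside 32.5% with library totals, and 52.2% in GFP+ROS+++ against GFP+ROS++, beside 25.3%. The 3 comparisons share their libraries and are not independent. In bulk libraries, fewer cells of a type and less RNA per cell cannot be told apart.

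**Figure D1:**
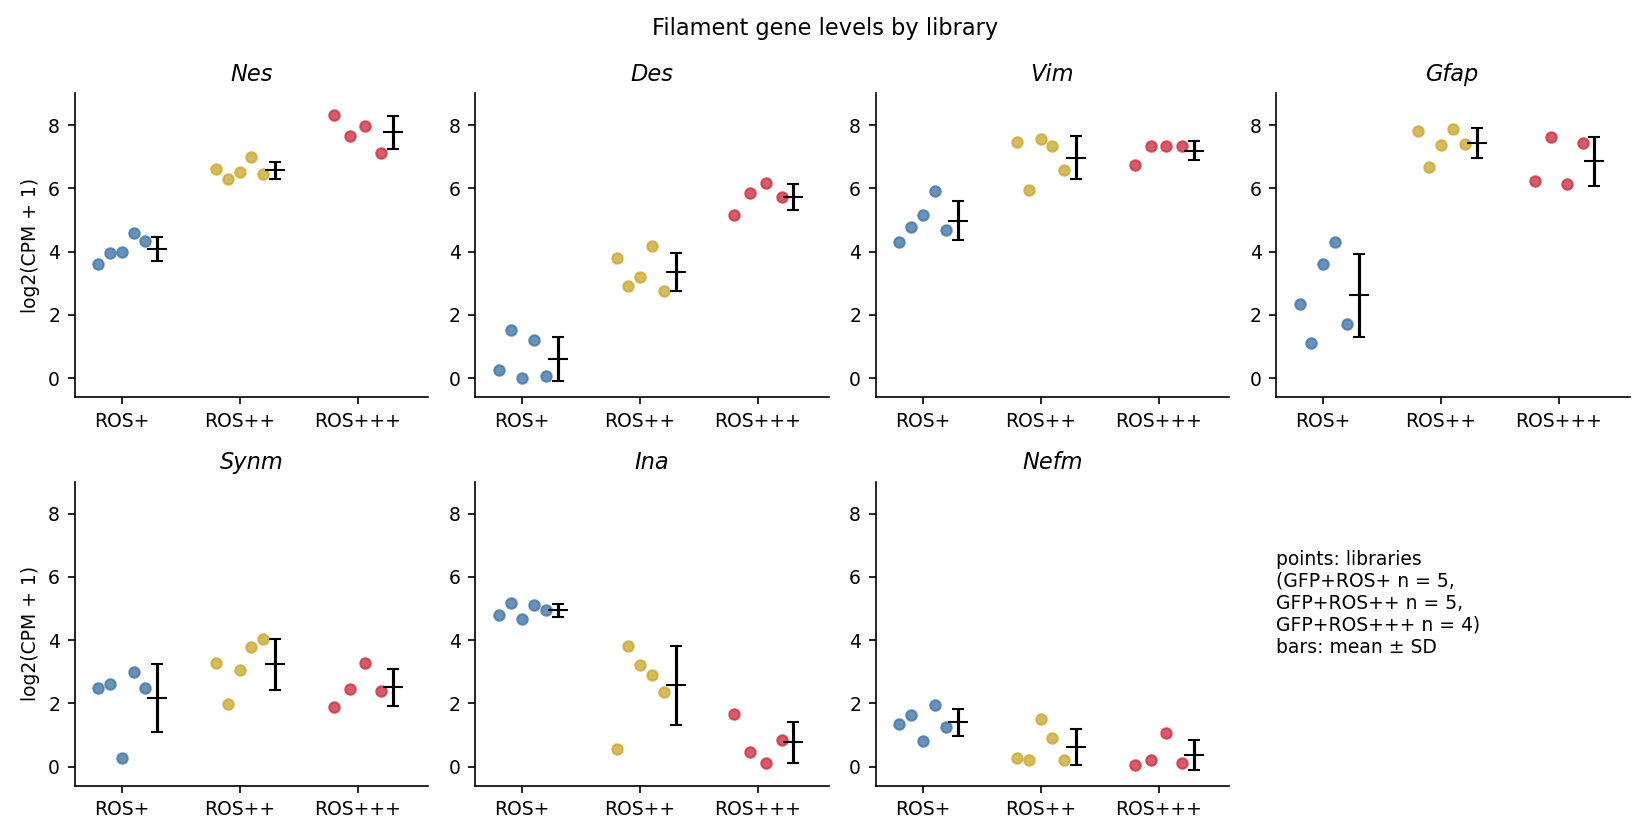
Level of each of the 7 measured filament genes by library, as log2(CPM + 1), with 5 GFP+ROS+, 5 GFP+ROS++ and 4 GFP+ROS+++ libraries as points and the mean ± SD as bars. Nes and Des stand higher in each next class with no overlap, Vim and Gfap reach their upper level by GFP+ROS++, and Ina stands lower in the upper classes.

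The promoters of 4 genes that moved are shown: Nes and Des were the only members called higher at both steps, Vim was called higher at the first, and Ina was called lower at both. Gfap, also called higher at the first step, is not printed because its window held none of the motifs searched. Each sequence is the coding strand from 250 bases before to 50 bases after the RefSeq start in GRCm38.p6, and capitals mark the motifs found. RefSeq gave a promoter for 6 of the 8 genes, which leaves out Nefl and Nefm.
Nes: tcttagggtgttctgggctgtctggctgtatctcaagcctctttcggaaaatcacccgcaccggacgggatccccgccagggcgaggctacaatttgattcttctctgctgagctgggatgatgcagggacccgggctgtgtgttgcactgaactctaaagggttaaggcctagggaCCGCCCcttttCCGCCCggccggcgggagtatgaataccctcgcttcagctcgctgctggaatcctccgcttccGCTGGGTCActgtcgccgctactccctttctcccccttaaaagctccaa
Des: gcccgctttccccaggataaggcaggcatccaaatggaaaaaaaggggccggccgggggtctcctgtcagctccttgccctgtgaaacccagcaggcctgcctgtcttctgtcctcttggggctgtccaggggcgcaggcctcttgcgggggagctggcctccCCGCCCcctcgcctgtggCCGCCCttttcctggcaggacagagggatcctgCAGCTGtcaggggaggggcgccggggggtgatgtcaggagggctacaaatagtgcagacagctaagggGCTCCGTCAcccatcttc
Vim: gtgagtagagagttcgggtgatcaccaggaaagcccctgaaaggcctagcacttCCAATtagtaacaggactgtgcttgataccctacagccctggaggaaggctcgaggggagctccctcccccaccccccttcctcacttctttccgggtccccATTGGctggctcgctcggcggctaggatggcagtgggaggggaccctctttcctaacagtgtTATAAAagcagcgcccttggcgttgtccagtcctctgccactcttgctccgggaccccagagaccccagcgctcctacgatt
Ina: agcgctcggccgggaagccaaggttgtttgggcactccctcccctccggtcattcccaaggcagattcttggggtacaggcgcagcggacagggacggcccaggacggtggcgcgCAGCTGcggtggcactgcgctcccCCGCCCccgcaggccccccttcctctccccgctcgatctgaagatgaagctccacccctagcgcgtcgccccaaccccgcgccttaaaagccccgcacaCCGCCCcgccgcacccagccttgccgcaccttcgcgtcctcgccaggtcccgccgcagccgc
These windows are chr3:87970843-87971142, chr1:75360042-75360341, chr2:13574061-13574360 and chr19:47014431-47014730, all on the forward strand. Both strands were searched for the TATA box written as TATAAA, the CCAAT box as named, the GC box written as GGGCGG, and 1 form of the E-box written as CAGCTG. The core of the antioxidant response element was written as TGACNNNGC, the AP-1 site as TGANTCA, and the CArG box of muscle genes was searched by its consensus. No match overlapped another, and the AP-1 site and CArG box, held by 7.81% and 1.63% of the windows, had no match in the 6 genes. Nes and Des each held 2 GC boxes, read on the reverse strand as CCGCCC, which 35.7% of 32851 mouse promoter windows hold at least once. Each also held 1 match to the antioxidant response element core on the reverse strand, a motif in 12.4% of the windows. The match began 2 bases into the transcript in Nes and 33 bases into it in Des. Des and Ina each held 1 E-box, found in 16.3% of the windows, and Ina also held 2 GC boxes. Vim held a TATA box 32 bases before the start and 2 CCAAT boxes, motifs in 13.6% and 37.4% of the windows. The window of Synm, not printed, held 1 CCAAT box. A match describes the letters in these windows and says nothing on binding.

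Nes encodes nestin, the filament protein whose regulatory elements drive the reporter, and lies on mm10 chromosome 3 from 87971078 to 87980451 (ENSMUSG00000004891). It had 11.2, 14.5, 14.8, 23.0 and 19.4 CPM in the GFP+ROS+ libraries, 96.8, 77.6, 90.0, 127 and 86.3 CPM in the GFP+ROS++ libraries, and 321, 203, 248 and 137 CPM in the GFP+ROS+++ libraries. The classes did not overlap in any pair: every library of a class lay above every library of the class below it. Such separation held for 23.0% of all tested genes between GFP+ROS++ and GFP+ROS+, for 27.0% between GFP+ROS+++ and GFP+ROS++, and for 50.0% between GFP+ROS+++ and GFP+ROS+. Nes was higher by 2.48 ± 0.23 (SE) in GFP+ROS++ than in GFP+ROS+ (adjusted p = 2.27e-07) and by a further 1.19 ± 0.24 in GFP+ROS+++ than in GFP+ROS++ (adjusted p = 0.000716). The highest and lowest GFP+ROS+++ libraries differed 2.35-fold, a wider spread than the 1.63-fold range within GFP+ROS++. Even the lowest GFP+ROS+ library held 283 Nes reads, so a Nes signal was present in every library of every gate.

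Radial glia-like and pericyte markers both moved with Nes at the first step, but of these only the pericyte markers did at the second. The summed level of 14 radial glia-like stem cell markers ranged over 1332 to 2021 CPM in GFP+ROS+, 7349 to 10061 CPM in GFP+ROS++ and 6830 to 10473 CPM in GFP+ROS+++. Of these 14 genes, 13 were called higher and none lower in GFP+ROS++ than in GFP+ROS+. In GFP+ROS+++ against GFP+ROS++, 1 was higher and 6 were lower, or 1 and 4 when scaled by relative log expression. Of all tested genes, 16.4% were called higher and 13.2% lower at the first step, and 9.89% and 29.2% at the second. The summed level of 12 pericyte markers ranged over 210.1 to 712 CPM, 8621 to 24462 CPM and 55967 to 64563 CPM in the same order. All 12 were called higher at the first step and 11 at the second, among them Abcc9, a potassium channel regulator of mural cells, which averaged 2.20 ± 1.63, 297 ± 166 and 1040.1 ± 137 CPM (SD). No pericyte marker was at 0 in any library. Their part in the Nes levels was not tested.

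Des encodes desmin, the filament of muscle and mural cells, and lies on chromosome 1 from 75360329 to 75368579 (ENSMUSG00000026208). It had 0.198, 1.87, 0, 1.32 and 0.0469 CPM in GFP+ROS+, 12.99, 6.49, 8.23, 16.9 and 5.73 CPM in GFP+ROS++, and 34.9, 57.0, 71.2 and 51.9 CPM in GFP+ROS+++. The classes were fully separated, and the GFP+ROS+ values rest on 0 to 39 reads per library, where a count of 0 allows up to 0.134 CPM in that library. Des was higher by 2.75 ± 0.39 in GFP+ROS++ than in GFP+ROS+ (adjusted p = 3.3e-05) and by 2.36 ± 0.41 in GFP+ROS+++ than in GFP+ROS++ (adjusted p = 0.000214). The call at the first step held under every setting tried, but its size ran over 1.36 with a pseudocount of 5 CPM to 5.25 with limma-voom. Smooth muscle markers moved the same way: all 8 measured of 10 listed were called higher at the first step and 4 at the second, and their summed level ranged over 16.7 to 98.99, 584 to 2276 and 2832 to 4106 CPM in rising ROS order. Higher calls covered 16.4% of all tested genes at the first step and 9.89% at the second. Myl9, a myosin light chain of contractile cells, averaged 24.0 ± 13.2, 652 ± 289 and 2171 ± 281 CPM. The part of mural markers in the Des levels was not tested. Des shares 220 exonic bases with Gm15179, an antisense gene that averaged 0, 0.401 and 2.17 CPM, and without strand information reads of the pair cannot be told apart there.

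Vim encodes vimentin, a filament that nestin assembles with, and lies on chromosome 2 from 13573927 to 13582826 (ENSMUSG00000026728). It had 18.6, 26.5, 35.1, 60.1 and 24.8 CPM in GFP+ROS+, 175, 60.7, 189, 159.6 and 94.5 CPM in GFP+ROS++, and 106, 162, 160.2 and 163 CPM in GFP+ROS+++. The GFP+ROS++ libraries lay above those of GFP+ROS+ by a narrow margin at their closest, and the GFP+ROS+++ libraries fell inside the GFP+ROS++ range. Vim was higher by 2.00 ± 0.31 in GFP+ROS++ than in GFP+ROS+ (adjusted p = 9.43e-05) and by 2.22 ± 0.33 in GFP+ROS+++ than in GFP+ROS+ (adjusted p = 1.76e-05). Between GFP+ROS+++ and GFP+ROS++ the difference was 0.22 with a 95% interval of -0.47 to 0.91 (adjusted p = 0.629). The Nes estimate at that step, 1.19, lay outside this interval, but its own 95% interval of 0.69 to 1.70 overlapped it. The ratio of Nes to Vim was not called between these classes (exact permutation, adjusted p = 0.119), so the 2 genes were not shown to differ there. Microglia and macrophage markers had a like pattern: all 11 measured of 12 listed were called higher at the first step and none at the second, and their sum ranged over 3.71 to 18.9 CPM in GFP+ROS+, 935 to 2309 CPM in GFP+ROS++ and 705 to 2918 CPM in GFP+ROS+++. Aif1, Cx3cr1, Tyrobp and C1qa, genes of these cells, were each at 0 in at least 1 GFP+ROS+ library. In GFP+ROS++, replicate 2 had both the lowest marker sum, 935 CPM, and the least Vim. In GFP+ROS+++ the order differed: replicate 4 had the lowest sum, 705 CPM, with 163 CPM of Vim, and replicate 1 had 1231 CPM with the least Vim. The pattern was not particular to these cells, since 11 of 12 astrocyte markers were also called higher at the first step, and 1 higher and 3 lower at the second. The second-step astrocyte counts were near the shares of all tested genes, 9.89% higher and 29.2% lower. At the first step these shares were 16.4% and 13.2%. The part of microglia and macrophage markers in the Vim levels was not tested.

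Gfap encodes glial fibrillary acidic protein, the filament of astrocytes and radial glia-like stem cells, and lies on chromosome 11 from 102887336 to 102900912 on the reverse strand (ENSMUSG00000020932). It had 4.11, 1.15, 11.2, 18.7 and 2.25 CPM in GFP+ROS+, 224, 102, 166, 236 and 169 CPM in GFP+ROS++, and 74.2, 197, 69.1 and 171 CPM in GFP+ROS+++. Gfap spread 16.2-fold within GFP+ROS+, yet the highest of these libraries lay below every library of the other classes. It was higher by 4.82 ± 0.52 in GFP+ROS++ than in GFP+ROS+ (adjusted p = 4.82e-06) and by 4.24 ± 0.55 in GFP+ROS+++ than in GFP+ROS+ (adjusted p = 9.71e-06). The difference between GFP+ROS+++ and GFP+ROS++ was -0.58 with a 95% interval of -1.76 to 0.60 (adjusted p = 0.431). In GFP+ROS+++, replicates 2 and 4 held the most Gfap and replicates 1 and 3 the least, whereas Nes was highest in replicates 1 and 3.

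Astrocyte markers stood beside Gfap. The summed level of 12 astrocyte genes ranged over 693 to 1069 CPM in GFP+ROS+, 2099 to 3037 CPM in GFP+ROS++ and 2173 to 3928 CPM in GFP+ROS+++. Of the 12, 11 were called higher and none lower at the first step, and 1 higher and 3 lower at the second, or 2 higher and 1 lower when scaled by relative log expression. All tested genes had 16.4% called higher and 13.2% lower at the first step, and 9.89% and 29.2% at the second. Within GFP+ROS+++ the sum was 3606 and 3928 CPM in replicates 2 and 4, against 2701 and 2173 CPM in replicates 1 and 3, so the libraries of that class with more Gfap also held more astrocyte marker RNA. The other classes did not show this order: in GFP+ROS++ replicates 1 to 4 the sum stayed within 2972 to 3037 CPM while Gfap ran over 102 to 236 CPM, and in GFP+ROS+ replicate 3 held the second-highest Gfap with the second-lowest sum, 752 CPM. Aqp4 and Gjb6, a water channel and a gap junction protein of astrocytes, were at 0 in at least 1 GFP+ROS+ library. Their part in the Gfap levels was not tested.

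**Figure D2:**
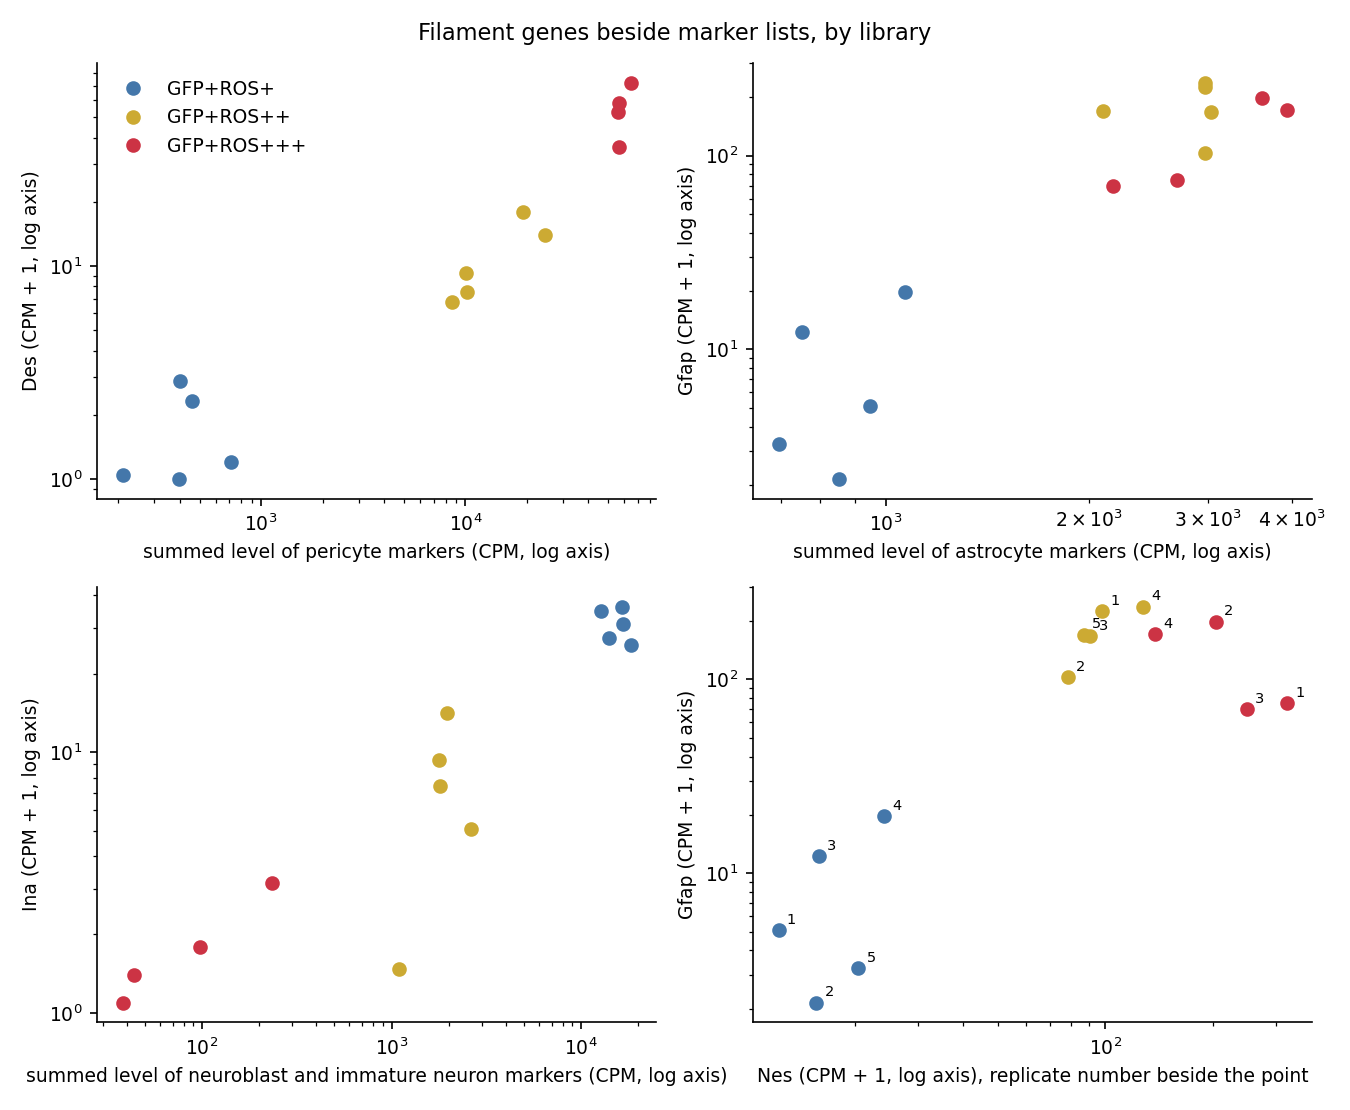
Each point is a library, coloured by class, on logarithmic axes: Des against 12 pericyte markers, Gfap against 12 astrocyte markers, Ina against 12 neuroblast and immature neuron markers, and Gfap against Nes with replicate numbers. The 4 GFP+ROS+++ libraries spread from high Nes with low Gfap to lower Nes with high Gfap.

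Ina encodes alpha-internexin, a neurofilament protein of young neurons, and lies on chromosome 19 from 47014698 to 47025327 (ENSMUSG00000034336). It had 26.5, 35.2, 24.7, 33.8 and 30.1 CPM in GFP+ROS+, 0.471, 13.1, 8.36, 6.44 and 4.09 CPM in GFP+ROS++, and 2.15, 0.393, 0.0952 and 0.787 CPM in GFP+ROS+++. The GFP+ROS+ libraries agreed within 1.43-fold and lay above all others, while the other 2 classes overlapped through GFP+ROS++ replicate 1. Ina fell by 2.37 ± 0.49 in GFP+ROS++ against GFP+ROS+ (adjusted p = 0.0012) and by 4.17 ± 0.52 in GFP+ROS+++ against GFP+ROS+ (adjusted p = 2.18e-06). It fell by 1.79 ± 0.52 in GFP+ROS+++ against GFP+ROS++ (adjusted p = 0.0104), a call that limma-voom did not give (adjusted p = 0.0528). Ina shares 456 exonic bases with Nt5c2, which averaged 56.5, 44.6 and 53.9 CPM in the 3 classes.

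Neuronal markers moved with Ina across the classes. The summed level of 12 neuroblast and immature neuron genes ranged over 12694 to 18304 CPM in GFP+ROS+, 1099 to 2628 CPM in GFP+ROS++ and 38.1 to 236 CPM in GFP+ROS+++. Of these, 11 were called lower in GFP+ROS++ than in GFP+ROS+ and 10 lower in GFP+ROS+++ than in GFP+ROS++, with none higher. Lower calls covered 13.2% and 29.2% of all tested genes in these comparisons. Neurod1, a transcription factor of granule neuron differentiation, averaged 1538 ± 257, 86.7 ± 32.2 and 2.50 ± 2.90 CPM. GFP+ROS++ replicate 1, which had the least Ina of its class, also had the lowest neuroblast sum of that class. In GFP+ROS+++ all libraries kept the same order for Ina and the neuroblast sum, with replicate 1 highest in both, though on 2 to 45 Ina reads. The other classes did not keep such an order throughout: GFP+ROS++ replicate 5 had the highest sum of its class, 2628 CPM, with 4.09 CPM of Ina, and GFP+ROS+ replicate 3 had the highest sum of all with the lowest Ina of its class. The part of neuroblast RNA in the Ina levels was not tested.

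Nefm encodes the medium neurofilament subunit and lies on chromosome 14 from 68082590 to 68124846 on the reverse strand (ENSMUSG00000022054). It had 1.54, 2.11, 0.758, 2.90 and 1.36 CPM in GFP+ROS+, 0.21, 0.161, 1.83, 0.869 and 0.164 CPM in GFP+ROS++, and 0.0477, 0.147, 1.10 and 0.0787 CPM in GFP+ROS+++. All classes overlapped, and 5 of the 9 libraries of the upper classes held 3 reads or fewer. Nefm fell by 1.04 ± 0.36 in GFP+ROS+++ against GFP+ROS+ (adjusted p = 0.0198), a call lost without GFP+ROS+ replicate 4 (adjusted p = 0.0524), GFP+ROS+++ replicate 1 (0.0551) or GFP+ROS+++ replicate 4 (0.0518). The difference between GFP+ROS++ and GFP+ROS+ was -0.78 ± 0.34 (adjusted p = 0.0971) and passed the threshold without GFP+ROS++ replicate 3 (adjusted p = 0.0348). Annotated Nefm exons share 1108 bases with Nefl, the light subunit on the opposite strand, so the Nefm values are uncertain.

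Synm encodes synemin, a large filament protein that links desmin and vimentin networks to attachment sites, and lies on chromosome 7 from 67730160 to 67759742 on the reverse strand (ENSMUSG00000030554). It had 4.62, 5.18, 0.223, 7.03 and 4.64 CPM in GFP+ROS+, 8.80, 2.95, 7.29, 12.9 and 15.6 CPM in GFP+ROS++, and 2.67, 4.52, 8.76 and 4.25 CPM in GFP+ROS+++. The classes overlapped in all pairs and no comparison was called. The difference was 1.05 in GFP+ROS++ against GFP+ROS+ with a 95% interval of -0.01 to 2.11 (adjusted p = 0.13), and 0.32 in GFP+ROS+++ against GFP+ROS+ with an interval of -0.81 to 1.45 (adjusted p = 0.624). In GFP+ROS+++ against GFP+ROS++ it was -0.73 with an interval of -1.86 to 0.40 (adjusted p = 0.299), which does not reach the 2.36 of Des at that step. Synm shares 84 exonic bases with Ttc23 and 426 with Gm45102, both on the opposite strand.

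**Figure D3:**
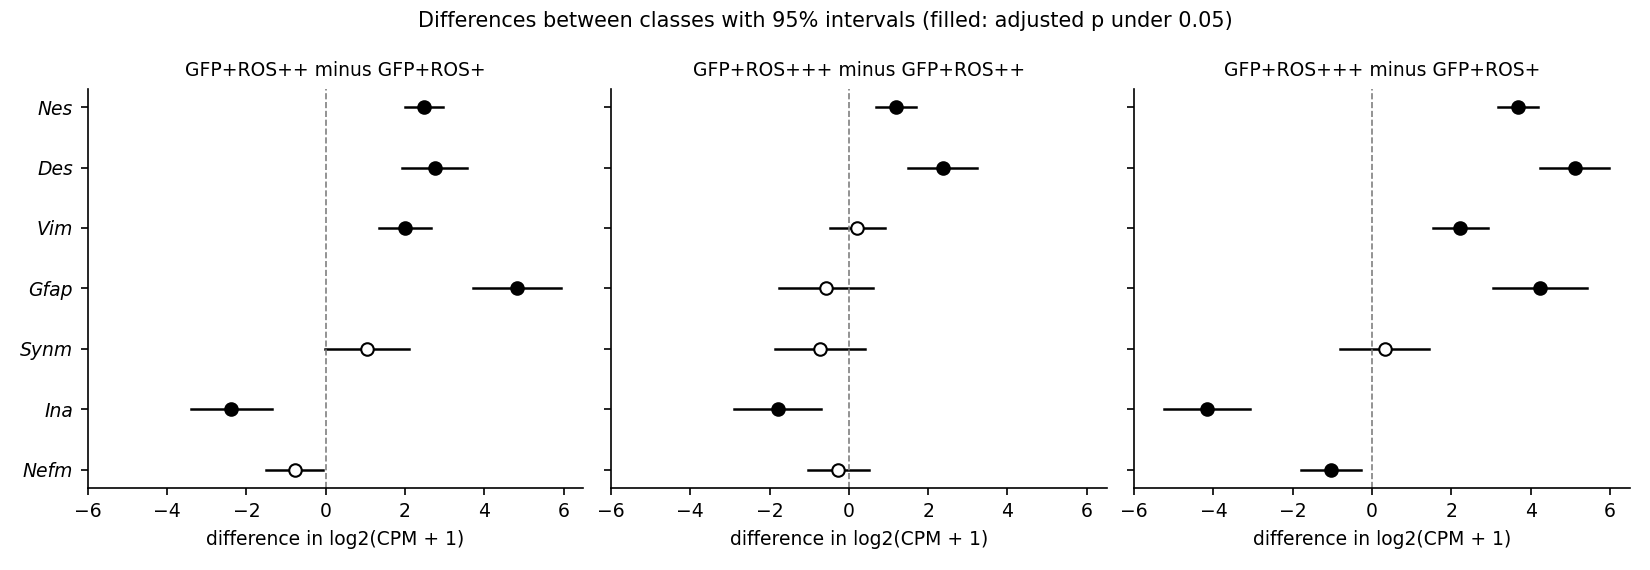
Differences in log2(CPM + 1) of the 7 genes in the 3 comparisons, with 95% intervals from the limma model over all 14 libraries; filled points have an adjusted p under 0.05. Nes and Des lie to the right of 0 in every panel, Ina to the left in every panel, and Vim and Gfap include 0 between the 2 upper classes.

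Whether the signed change of a gene differed between the steps was tested as the second step minus the first. The sign counts, so a rise followed by a fall also gives a negative value. Gfap differed between the steps by -5.40 ± 0.92 (adjusted p = 0.00102), a call that held in all 23 alternatives. Vim differed by -1.78 ± 0.55 (adjusted p = 0.0314) and Nes by -1.28 ± 0.40 (adjusted p = 0.0333), but these calls were lost in 8 and 11 of the 23 alternatives. No other member was called, where 17.8% of all tested genes were, 2.81% higher and 15.0% lower. Des had -0.39 ± 0.69 (adjusted p = 0.757) and so showed no detectable difference between its steps. With Des near 0 in GFP+ROS+, the size of this value is uncertain. It ran over -2.765 to 0.62 across the alternatives and was called in none (smallest adjusted p = 0.142).

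The make-up of the filament RNA was described per length, as RPKM, the CPM value divided by the length of the annotated exons in kilobases. The 7 genes summed to 21.6 ± 6.55 RPKM in GFP+ROS+ (SD, n = 5), 92.0 ± 25.3 RPKM in GFP+ROS++ (n = 5) and 112 ± 11.8 RPKM in GFP+ROS+++ (n = 4). In GFP+ROS+, Ina took 44.7 ± 9.45% of this sum and Vim 31.0 ± 6.15%, and Ina ranked above Vim in 4 of 5 libraries. In GFP+ROS++, Gfap took 46.1 ± 4.49%, Vim 30.2 ± 6.80% and Nes 16.8 ± 3.26%, with Gfap first in 4 of 5 libraries and Nes in the third place in all 5. In GFP+ROS+++, Nes took 32.3 ± 13.53%, Vim 27.7 ± 4.16%, Gfap 26.4 ± 11.7% and Des 12.7 ± 3.40%. There the first 3 did not differ beyond their spread: Nes came first in replicates 1 and 3, Gfap in replicates 2 and 4, and Vim second in all 4. With the longest transcript as length, Vim averaged 39.9 ± 5.76% in GFP+ROS+ and Ina 36.1 ± 9.26%, which lie within their spread. Ina still ranked above Vim in GFP+ROS+ replicates 1, 2 and 5. In GFP+ROS+++ that length gave Vim 32.6%, Gfap 30.1% and Nes 25.1%, with Vim above Nes in replicate 3.

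With exon lengths, the class means of the Vim share lay between 27.7% and 31.0%, a narrower band than for Nes, Gfap, Des or Ina. Des took 0.781 ± 1.02%, 2.85 ± 0.767% and 12.7 ± 3.40% in rising ROS order, and Ina 44.7 ± 9.45%, 2.68 ± 2.75% and 0.25 ± 0.285%. Synm took at most 2.57% and Nefm at most 1.38% as class means.

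**Figure D4:**
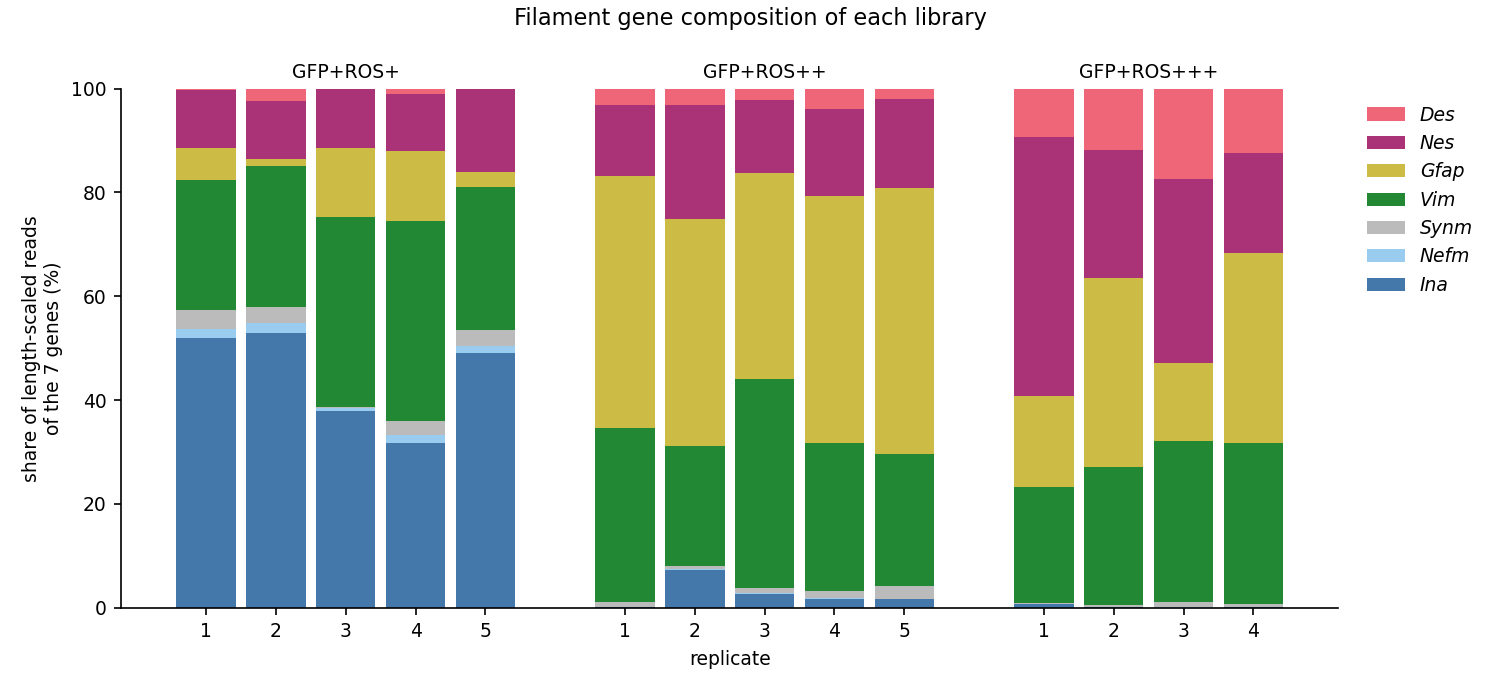
Share of each gene in the length-scaled reads of the 7 filament genes (percent, stacked to 100), 1 bar per library and grouped by class. The Ina band is broad in the 5 GFP+ROS+ libraries and thin elsewhere, the Gfap band is broadest in GFP+ROS++, and the Des and Nes bands are broadest in GFP+ROS+++.

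Ratios of 2 members within a library, taken as differences of log2(CPM + 1), were tested for 3 pairs by exact two-sided permutation of samples in the 3 comparisons, with adjustment over the 9 tests. The log2 ratio of Gfap to Nes averaged -1.48 ± 1.22 in GFP+ROS+ (SD, n = 5), 0.86 ± 0.30 in GFP+ROS++ (n = 5) and -0.91 ± 1.23 in GFP+ROS+++ (n = 4). It was higher by 2.35 in GFP+ROS++ than in GFP+ROS+ and lower by a difference of -1.78 in GFP+ROS+++ than in GFP+ROS++ (exact permutation, adjusted p = 0.0286 each). Between GFP+ROS+++ and GFP+ROS+ it differed by 0.57 (exact permutation, adjusted p = 0.492). Gfap thus stood highest relative to Nes in the middle class.

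The log2 ratio of Des to Vim averaged -4.36 ± 0.74 in GFP+ROS+, -3.61 ± 0.53 in GFP+ROS++ and -1.46 ± 0.21 in GFP+ROS+++. It was higher in GFP+ROS+++ by 2.90 than in GFP+ROS+ and by 2.15 than in GFP+ROS++ (exact permutation, adjusted p = 0.0286 each), and the difference of 0.75 between GFP+ROS++ and GFP+ROS+ was not called (exact permutation, adjusted p = 0.143). With Des near 0 in GFP+ROS+, both values against that class hang on the pseudocount: with 0.25 CPM they were 4.09 and 1.85, the second then called (exact permutation, adjusted p = 0.0476), and with 5 CPM they were 1.27 and -0.50. The log2 ratio of Nes to Vim averaged -0.88 ± 0.40, -0.40 ± 0.56 and 0.57 ± 0.77 in rising ROS order. Only its difference of 1.45 between GFP+ROS+++ and GFP+ROS+ was called (exact permutation, adjusted p = 0.0286). The smallest p such a test allows is 0.00794 for 5 against 5 libraries and 0.0159 for 4 against 5. Of the 9 tests 5 passed. Without 1 GFP+ROS+++ library the smallest p of a comparison with that class is 0.0357, and none of the 9 passed at that size, so these counts say nothing of stability. Without any 1 such library the differences themselves remained: Des to Vim ran over 2.80 to 2.95 against GFP+ROS+ and 2.04 to 2.20 against GFP+ROS++, Gfap to Nes over -2.19 to -1.38 against GFP+ROS++, and Nes to Vim over 1.11 to 1.72 against GFP+ROS+.

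Among 43 other intermediate filament genes, mostly keratins, 8 had a row in the table used here. Lmna, the A-type lamin that lines the nuclear envelope, averaged 18.4 ± 3.64, 124 ± 65.7 and 503 ± 128 CPM in GFP+ROS+, GFP+ROS++ and GFP+ROS+++ (SD). It was called higher by 2.55 ± 0.27 in GFP+ROS++ than in GFP+ROS+ and by 2.13 ± 0.29 in GFP+ROS+++ than in GFP+ROS++ (adjusted p = 1.17e-06 and 1.75e-05), and it was the only one of the 8 called higher. In the opposite direction, Lmnb1, a B-type lamin, averaged 5.00 ± 2.41, 2.45 ± 1.86 and 0.413 ± 0.177 CPM and fell by 1.99 ± 0.42 in GFP+ROS+++ against GFP+ROS+ (adjusted p = 0.000566). Bfsp2, known as a beaded filament protein of the eye lens, averaged 39.5 ± 13.1, 41.4 ± 34.0 and 0.453 ± 0.844 CPM and fell by 4.65 ± 0.52 in GFP+ROS+++ against GFP+ROS++ (adjusted p = 2.39e-06). Krt222, a keratin-like gene, averaged 13.4 ± 4.44, 14.1 ± 9.61 and 1.21 ± 1.17 CPM and fell by 2.65 ± 0.51 at that step (adjusted p = 0.000491). None of the 8 was called lower at the first step, and 5 were at the second, or 3 when libraries were scaled by relative log expression, which lost Lmnb1 and Krt10. Among all tested genes, 16.4% were called higher and 13.2% lower at the first step, and 9.89% and 29.2% at the second. That scaling took the genes called lower at the second step from 4405 to 2587 of 15102.

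Of 13 linkers and chaperones of filaments examined, 8 had a row. Hspb1, a small heat shock protein that binds filaments, averaged 0.316 ± 0.129, 2.98 ± 2.05 and 26.2 ± 2.42 CPM and was higher by 3.01 ± 0.45 in GFP+ROS+++ than in GFP+ROS++ (adjusted p = 4.41e-05). Its difference of 1.36 ± 0.42 at the first step (adjusted p = 0.0208) was lost without GFP+ROS++ replicate 1, 3 or 4, at adjusted p = 0.0568, 0.0538 and 0.0541, on the deposited log2 values (0.133) and with limma-voom (0.232). Cryab, the alpha-B crystallin chaperone of desmin and Gfap filaments, averaged 310.4 ± 111, 619 ± 149 and 509 ± 55.6 CPM and was higher by 1.03 ± 0.21 in GFP+ROS++ than in GFP+ROS+ (adjusted p = 0.000964). Plec, the plectin linker between filaments and junctions, averaged 32.9 ± 10.6, 53.3 ± 19.9 and 85.1 ± 30.1 CPM and was called in GFP+ROS+++ against GFP+ROS+, at 1.31 ± 0.31 (adjusted p = 0.00131). Of the 8 genes, 2 rose and none fell at the first step, and 1 rose and none fell at the second. In GFP+ROS+++ against GFP+ROS+, 3 rose and 2 fell, where 19.2% and 40.0% of all tested genes did. Relative log expression and upper-quartile scaling each gave 4 that rose and none that fell in that comparison. Over all tested genes 16.4% rose and 13.2% fell at the first step, and 9.89% rose and 29.2% fell at the second. Under the 2 other scalings tried, 3 of the 8 rose at the second step. All genes that rose there numbered 2825 with relative log expression and 2236 with upper-quartile scaling, beside 1493 of 15102 with library totals.

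All 12 kinases and modifiers of filaments had a row. Aurkb, a mitotic kinase that phosphorylates vimentin, was highest in the middle class and averaged 9.65 ± 8.23, 38.2 ± 16.7 and 0.828 ± 1.35 CPM in rising ROS order. It was higher by 2.18 ± 0.55 in GFP+ROS++ than in GFP+ROS+ (adjusted p = 0.00551, but 0.0626 on the deposited log2 values) and fell by 4.54 ± 0.58 in GFP+ROS+++ against GFP+ROS++ (adjusted p = 1e-05). Cdk1, a mitotic kinase of nestin and vimentin, averaged 26.3 ± 18.7, 76.8 ± 16.0 and 8.89 ± 6.75 CPM, with a first-step difference of 2.20 ± 0.81 (adjusted p = 0.053), and fell by 3.22 ± 0.86 at the second step (adjusted p = 0.00798, but 0.0511 with limma-voom). Padi2, an enzyme that citrullinates filament proteins, averaged 4.98 ± 3.63, 34.3 ± 20.6 and 10.9 ± 8.95 CPM and was higher by 2.67 ± 0.55 at the first step (adjusted p = 0.0013). Its fall by 1.68 ± 0.59 at the second step (adjusted p = 0.0303) was lost under both other scalings and without GFP+ROS++ replicate 3 or 4 or GFP+ROS+++ replicate 1 or 3, at adjusted p = 0.0711, 0.0796, 0.093 and 0.0995. The call was also lost with a pseudocount of 0.25 CPM (0.0546), on the deposited log2 values (0.0737) and with a replicate block from library numbers (0.0556). Camk2d, a calcium-dependent kinase, rose at both steps with 28.1 ± 8.27, 95.4 ± 22.3 and 166 ± 17.7 CPM, by 1.75 ± 0.21 and 0.82 ± 0.22 (adjusted p = 4.06e-06 and 0.00632). Pak1, a p21-activated kinase, averaged 150.2 ± 22.6, 84.9 ± 13.8 and 11.2 ± 8.92 CPM and fell by 3.07 ± 0.32 at the second step (adjusted p = 1.42e-06). Over the list, 4 rose and none fell at the first step and 2 rose and 6 fell at the second, where relative log expression scaling gave 3 and 4. The shares of all tested genes were 16.4% and 13.2% at the first step and 9.89% and 29.2% at the second. With relative log expression, 2825 of the 15102 genes rose and 2587 fell at the second step, beside 1493 and 4405 with library totals.

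**Figure D5:**
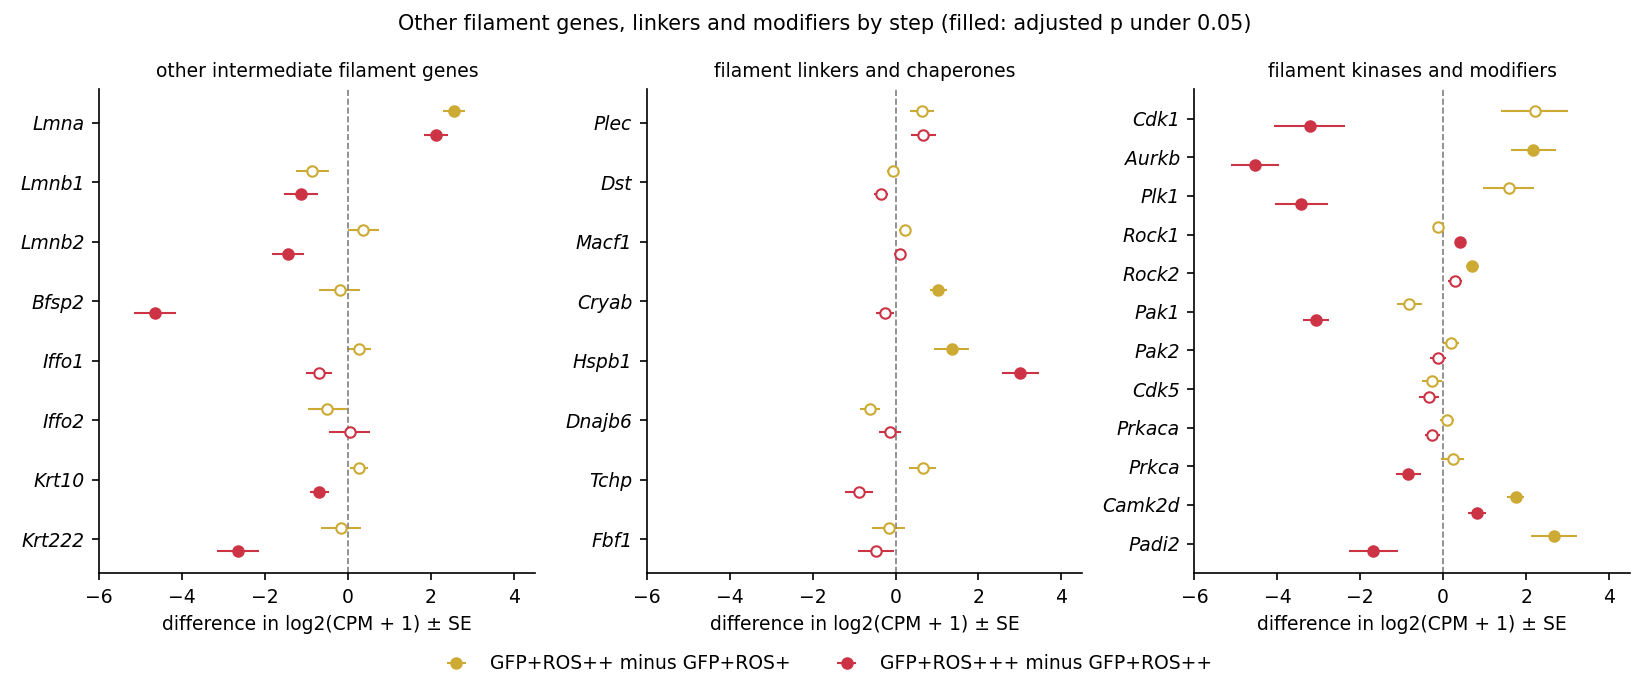
Differences in log2(CPM + 1) ± SE of the 8 other filament genes, 8 linkers and chaperones and 12 kinases and modifiers, for GFP+ROS++ minus GFP+ROS+ and GFP+ROS+++ minus GFP+ROS++; filled points have an adjusted p under 0.05. Lmna, Hspb1 and Camk2d are filled to the right of 0 at both steps. Aurkb and Padi2 are filled on opposite sides of 0, and other genes, Cdk1 among them, also change side but are not filled at both steps.

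The genes with the profile nearest to each member were found by the root mean square difference of centred log2(CPM + 1) values over the 14 libraries, in which all genes share libraries and depth. Nearest to Nes was Esyt1, an extended synaptotagmin, at 0.27, with 5.72 ± 1.37, 46.5 ± 11.5 and 102.95 ± 24.5 CPM in rising ROS order, followed by 9930111J21Rik2 at 0.31 and Sat1 at 0.35. Des was nearest to Slc19a1, a folate carrier, at 0.44, to Gucy1b1, a subunit of soluble guanylate cyclase, at 0.47 and to Foxf2, a forkhead factor known from brain pericytes, at 0.47. Among the members, Nes lay at 0.78 from Vim and 0.82 from Des, so neither was among its nearest genes. Vim was nearest to Trim47 at 0.33, B4galt1 at 0.40 and Cd37 at 0.40.

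Gfap had no neighbour as near: its closest were Selenop at 0.74, Sdc4 at 0.76 and Naaa at 0.76. Ina was nearest to Kif5a, a neuronal kinesin, at 0.44, which averaged 149 ± 26.6, 30.9 ± 13.1 and 8.48 ± 5.10 CPM, then to Srrm4os at 0.49 and St8sia2 at 0.51. Synm was nearest to Rhcg at 0.53, Intu at 0.58 and Pomt2 at 0.58, and Nefm to Capn10 at 0.32, Shf at 0.33 and Zfyve1 at 0.34. A member that varies little has near neighbours for that reason alone: the profile of Nefm varied by 0.62 about its own mean, against 2.35 for Gfap.

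Library depth, counted as reads in the 15119 listed genes only, was 20832009 to 25313902 reads in GFP+ROS+, 18325361 to 23454022 in GFP+ROS++ and 12704227 to 20998589 in GFP+ROS+++. The shallowest library was GFP+ROS+++ replicate 4, where 3 reads, the limit a count of 0 allows, equal 0.236 CPM. Such limits cover counting error only, since cDNA was amplified and no molecular identifiers are named, whereas the 95% intervals of differences rest on the spread between libraries. Against the label of Nestin-positive precursor cells, every class held Nes reads beside RNA of other cell types. In rising ROS order, oligodendrocyte lineage markers summed to 2101 to 5547, 2365 to 10270 and 459.8 to 655 CPM, endothelial markers to 111 to 321, 183 to 477 and 1108 to 1431 CPM, leptomeningeal fibroblast markers to 949.6 to 1463, 1210.3 to 2041 and 736 to 1258 CPM, and mature neuron markers to 1149 to 1340.3, 437 to 632 and 96.0 to 213 CPM. Most endothelial genes were not called, with 1 of 10 higher at the first step and 2 at the second. Over all tested genes, 16.4% and 9.89% were called higher at these steps, and 13.2% and 29.2% lower. Esam, an adhesion molecule, averaged 18.2, 223 and 940 CPM, most of the endothelial sum in the upper classes but not in GFP+ROS+. Pdgfra, also a gene of oligodendrocyte precursors, carried most of the fibroblast sum in the lower classes at 1171, 1157 and 79.5 CPM, while 7 of the 10 fibroblast genes were called higher and none lower at the first step, and 3 higher and 1 lower at the second. Their part in the filament levels was not tested.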

How the data were processed

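RNA was measured in 14 libraries of the 3 dye classes. The authors' deposited table holds log2 values of 15119 genes under Ensembl identifiers. STAR, edgeR and genome build mm10 were used, per the submitters' processing notes. Which step each served, with what version and annotation, is not given in the sources used here. These values proved to be log2 CPM with a small prior (lowest value -4.36), and whole reads were recovered from all of them within 0.001 reads. Genes with a low count appear to have been left out before deposit, since each listed one has at least 82 reads in all.

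CPM was computed from the recovered reads over library totals, which cover the listed genes only. Then limma-trend 3.58.1 with robust settings (statmod 1.5.0, R 4.3.3) was run on log2(CPM + 1). Genes needed at least 1 CPM in 4 libraries, which kept 15102 and removed 17. Each class had a mean in 1 model with 11 residual degrees of freedom and no covariate, adjusted by Benjamini-Hochberg over all tested genes, and calls needed an adjusted p under 0.05. The procedure was tested on simulated data. Ratios were tested by exact permutation; the ratio of Nefm to Nefl was planned but could not be run, so 9 tests replaced 12. Symbols, positions and exon lengths came from GENCODE M21, which matched 15065 of the 15119 identifiers, and promoters from RefSeq GRCm38.p6. Replicate numbers follow the order of the samples and pair nothing.

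All 8 members are named. From each other list the 3 genes with the smallest F-test p among those called were eligible, plus filament list genes needed for roles, and for each member the 3 nearest profiles. Members and lists were chosen with earlier results of these data known. One gene of the linker and chaperone list is not reported here. Alternatives were other pseudocounts, scalings, filters and fits, and leaving out each library. A replicate block from library numbers was added after the data were seen.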

Additional observations from a re-analysis of the deposited data

Results flagged for a closer look

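The filament genes were checked in 21 sets of libraries (7 genes in 3 classes) for a library that stands apart from its class, which chance alone marks in about 1 set of 20, and 3 were marked. Vim in GFP+ROS+++ replicate 1 had 106 CPM, against 160.2 to 163 CPM in the other 3 libraries of its class. Synm in GFP+ROS+ replicate 3 had 0.223 CPM, against 4.62 to 7.03 CPM in the other 4. Nefm in GFP+ROS+++ replicate 3 had 1.10 CPM, against 0.0477 to 0.147 CPM in the other 3. The cause was not tested in any of them.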

How the results depend on the processing

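Of 665 tests of single members under alternatives, 633 kept their direction and their side of the threshold, 23 lost a call (11 for Nes and 8 for Vim between the steps, 3 for Nefm, 1 for Ina), 1 gained a call and 8 changed sign. The counts of members called in the 3 comparisons stayed within 1.5 times under every alternative. The number of members that differed between the steps was 3 and became 1 with relative log expression factors and 1 with upper-quartile factors, and ranged over 1 to 3 with a library left out. For Nes the step difference ran over -1.47 to -0.88, and for Vim over -2.30 to -1.39. The number of ratio tests that passed was 5 and ranged over 0 to 6 with a library left out; it was 0 without any 1 GFP+ROS+++ library, where 3 libraries against 5 allow no exact permutation p under 0.0357 and none passed after adjustment, and 3 to 6 without another library, where 4 against 4 allow none under 0.0286.

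None of the sign changes concerned a called value. The step difference of Des became 0.62 with a pseudocount of 5 CPM and 0.069 with relative log expression factors. It ran over -0.697 to 0.0094 with a library left out (0.0094 without GFP+ROS++ replicate 4). Over all alternatives it ran over -2.765 to 0.62. The step difference of Ina became -0.12 on the log2 values as deposited and -0.28 with limma-voom. It ran over -0.43 to 1.21 with a library left out (-0.43 without GFP+ROS++ replicate 1). Synm in GFP+ROS+++ against GFP+ROS+ ran over -0.15 (without GFP+ROS+ replicate 3) to 0.53, Vim in GFP+ROS+++ against GFP+ROS++ over -0.038 (without GFP+ROS++ replicate 2) to 0.37, and the ratio of Des to Vim in GFP+ROS++ against GFP+ROS+ was -0.50 with a pseudocount of 5 CPM and 1.85 (exact permutation, adjusted p = 0.0476) with 0.25 CPM. The cause was not tested.

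Relative log expression scaling moved the median of all genes in GFP+ROS+++ against GFP+ROS+ to -0.04, beside -0.44 with library totals, and in GFP+ROS+++ against GFP+ROS++ to 0.03, beside -0.34. Upper-quartile scaling gave -0.17 and -0.09, with 43.9% and 42.4% of the called genes higher. Low counts limit Nefm, Ina in GFP+ROS+++ and Des in GFP+ROS+. Of 21 shares, 3 moved beyond 1 SD with the longest transcript as length. The labels state no pairing, but library numbers in the titles run in 5 consecutive sets, 4 with all 3 classes and 1 without GFP+ROS+++. A fit with these sets as a replicate block, chosen after seeing the data, called 4699, 9065 and 6134 genes in GFP+ROS++ against GFP+ROS+, GFP+ROS+++ against GFP+ROS+ and GFP+ROS+++ against GFP+ROS++, and 5, 6 and 3 members, and changed no member's call. Deviations from class means correlated over 0.1 across genes in 3 of 13 pairs of the same set (-0.022 to 0.23). The median was 0.084 in the 13 pairs, beside -0.0089 (-0.15 to 0.16) in 52 pairs of different sets. Of the 14 libraries, 10 correlated best with their own set. Pairing is a hint from the data only, and the main fit and the permutation tests did not use it.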
